A study of Rattus norvegicus with 18 samples.

Results

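The proteasome subunit genes were followed in cultured rat cortical neurons that expressed either an shRNA against CHD5 or a control shRNA. A probe was taken as a member when the gene symbol in the array table, without an ending of _predicted or _mapped, began with Psma, Psmb, Psmc, Psmd, Psme, Psmf or Psmg. This gave 39 of the 22523 probes, for 38 symbols. One of these symbols, Psmc3ip, shares only the prefix and encodes a protein of homologous recombination, and Psmb10 has a pair of probes. Of the 39 members 37 were detected on at least 1 array (detection p-value against the negative control beads of at most 0.02), and these were tested together with the other detected probes, 11079 in all.

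The proteasome is the protease that degrades ubiquitin-tagged proteins. Its core particle is a barrel of rings of alpha subunits (Psma genes) around rings of beta subunits (Psmb genes), and the cutting sites lie on Psmb5, Psmb6 and Psmb7. The regulatory particle that caps the barrel has a ring of ATPases (Psmc genes), which unfold the substrate, and non-ATPase subunits (most Psmd genes), which bind and trim ubiquitin chains. Interferon and other inflammatory signals induce Psmb8, Psmb9 and Psmb10, which replace Psmb5, Psmb6 and Psmb7 in newly made particles to form the immunoproteasome, and they induce the subunits of the activator cap, Psme1 and Psme2. In neurons the proteasome turns over synaptic and regulatory proteins, and the immunoproteasome of brain is known mainly from glial cells.

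Cortical neurons of embryonic day 18 rats (E18) were infected on day 1 of culture with a lentivirus of the pLKO.1 system carrying either CHD5 shRNA, directed against a chromatin remodelling enzyme of the Mi2 group, or the scrambled control shRNA. RNA was taken on days 5, 9 and 12 from 3 replicates (a, b and c) of each, which gave 18 Illumina arrays in 6 groups of 3. A single CHD5 shRNA was used for the arrays, so an effect of its sequence on other transcripts and loss of CHD5 cannot be told apart, and CHD5 has no probe here, so its depletion was not checked on these arrays. The study itself reports less CHD5 protein on immunoblots and less CHD5 mRNA after the knockdown. Nothing states that the replicates came from separate cultures, so the p-values measure the spread between these arrays, which may be technical. Bulk RNA was measured, in which fewer cells of a type and less RNA per cell cannot be told apart.

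The promoters of 35 of the 38 member symbols (all but Psma7, Psmd6 and Psmd12) were taken from RefSeq (GRCr8) as windows of 250 bases before and 50 after the start of the gene. They were searched on both strands for TGACNNNGC, the core of the antioxidant response element that NRF factors bind, and for CCAAT, the core of the NF-Y site. The first occurred in 7 of the 35 member windows (20%) and in 12.1% of all 33469 windows of that length, and the second in 18 (51.4%) against 37.5%. In Psmb2, whose window holds both, TGACNNNGC begins at -68 and CCAAT at -72 from the start on the same strand, so that they share a base. Shown here are the 250 bases before the start of Psmb5 (chr15:32047380-32047629, minus strand) and Psmb6 (chr10:55737638-55737887, plus strand), which are constitutive catalytic subunits, and of Psmb8 (chr20:4657032-4657281, minus strand) and Psmb10 (chr19:50743293-50743542, minus strand), the inducible subunits on which the results turn. Each is written 5′ to 3′ on the strand of the gene, and capitals mark the motif, which is TGACNNNGC in Psmb5 and Psmb6 and CCAAT on the opposite strand in Psmb8. The Psmb10 window holds neither.
Psmb5: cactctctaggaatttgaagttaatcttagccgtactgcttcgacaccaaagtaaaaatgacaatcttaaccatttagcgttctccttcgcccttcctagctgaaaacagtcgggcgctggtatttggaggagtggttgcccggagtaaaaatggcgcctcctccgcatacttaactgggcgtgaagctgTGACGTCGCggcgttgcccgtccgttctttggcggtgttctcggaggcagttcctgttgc
Psmb6: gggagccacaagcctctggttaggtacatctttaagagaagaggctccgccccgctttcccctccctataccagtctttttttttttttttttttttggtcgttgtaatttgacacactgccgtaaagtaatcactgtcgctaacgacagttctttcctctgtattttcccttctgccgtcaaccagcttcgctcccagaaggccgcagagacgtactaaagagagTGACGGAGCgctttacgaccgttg
Psmb8: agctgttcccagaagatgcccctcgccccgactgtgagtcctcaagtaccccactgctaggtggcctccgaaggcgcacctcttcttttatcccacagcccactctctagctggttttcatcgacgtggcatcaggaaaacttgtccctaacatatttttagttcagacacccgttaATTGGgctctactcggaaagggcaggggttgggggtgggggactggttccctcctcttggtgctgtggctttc
Psmb10: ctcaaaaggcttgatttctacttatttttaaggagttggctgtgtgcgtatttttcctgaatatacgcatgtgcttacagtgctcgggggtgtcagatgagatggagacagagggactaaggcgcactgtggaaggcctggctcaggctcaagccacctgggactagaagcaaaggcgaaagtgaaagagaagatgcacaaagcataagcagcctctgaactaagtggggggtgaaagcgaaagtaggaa

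Most of the family was expressed throughout. Of the 39 probes 33 were detected on all 18 arrays, among them all 7 constitutive beta subunits, both activator subunits and both probes of Psmb10. The alpha subunit Psma3 was detected on 14 arrays, the ATPase Psmc6 on 7 and Psmc3ip on 6. Psmb8 was detected on 4 arrays. Psmb9 and the regulatory subunit Psmd8 were detected on 0, with deposited signals of 67.4 to 106 for Psmb9 and 65.1 to 106 for Psmd8, so their levels were not measured and their absence cannot be concluded. A further 11 genes of the family in RefSeq had no probe under these symbols, namely Psma8, Psmb11, Psmd10, Psmd14, Psme3, Psme4, Psmf1 and Psmg1 to Psmg4. A further 12 probes of the table are described as proteasome parts under other symbols, of which 2 were detected and 0 were called, and they were not counted as members.

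Mean signal per array lay between 400.2 and 789 on 17 arrays, with 8360 to 9931 probes detected. The array of control replicate b of day 9 stood apart, with a mean signal of 135 and 7047 probes detected. The SD of its log2 signals was 1.11 against 1.72 to 2.02 on the others, and the normalisation used here, a Z-score per array multiplied by the mean SD, stretches its values. All 10 neuronal markers with a probe were detected. Of 8 detected astrocyte markers all rose from day 5 to day 12 in the control cultures (median log2 change 2.68), and of 8 microglial markers with a probe 6 were detected on 0 arrays. Transcripts of astrocytes were thus measured beside those of neurons. All levels below are normalised log2 signals and all differences are on the log2 scale, with 3 arrays in each group. A member was called when its adjusted p (limma, Benjamini-Hochberg over all 11079 probes) was under 0.05.

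At day 5 no proteasome gene passed the test between the cultures. The count of members called by limma was 0 of 37, where 0.171% of all tested probes were called, and 0 members had an unadjusted p under 0.05, against 5.66% of all probes. Differences between CHD5 shRNA and control ran from -0.23 (Psmc3ip) to 0.16 (Psmd4, a ubiquitin receptor), with a median of -0.01. Groups did not overlap for 1 member, where this held for 11.0% of all probes. The 95% interval lay within 0.5 of 0 on either side for 32 of the 37 members.

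At days 9 and 12 the count of members called lower in the CHD5 shRNA cultures was 1, Psmb8, and 0 were called higher. Psmb8 was detected on 4 arrays, all of them control arrays of these days, so it passed the detection filter only through the samples in which it was high, and its call is given as a description. At day 9 this was 1 of 37 members (2.70%), where 5.89% of all tested probes were called and 2.25% were called lower. At day 12 it was again 1 of 37, where 5.47% were called and 3.24% were called lower. From 1 call of 37 no difference between members and all probes can be read. An unadjusted p under 0.05 was reached by 3 and 1 members, where 20.2% and 16% of all probes reached it. The member medians were 0.02 at day 9 and 0.00 at day 12, beside -0.02 and 0.01 for all tested probes. The median size of a difference was 0.111 for members and 0.151 for all probes at day 9, and 0.0658 and 0.108 at day 12. Most members are bright, and 32 of them lie among the 5540 probes at or above the median mean level. For those 5540 probes the median size was 0.201 at day 9 and 0.140 at day 12.

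**Figure D1:**
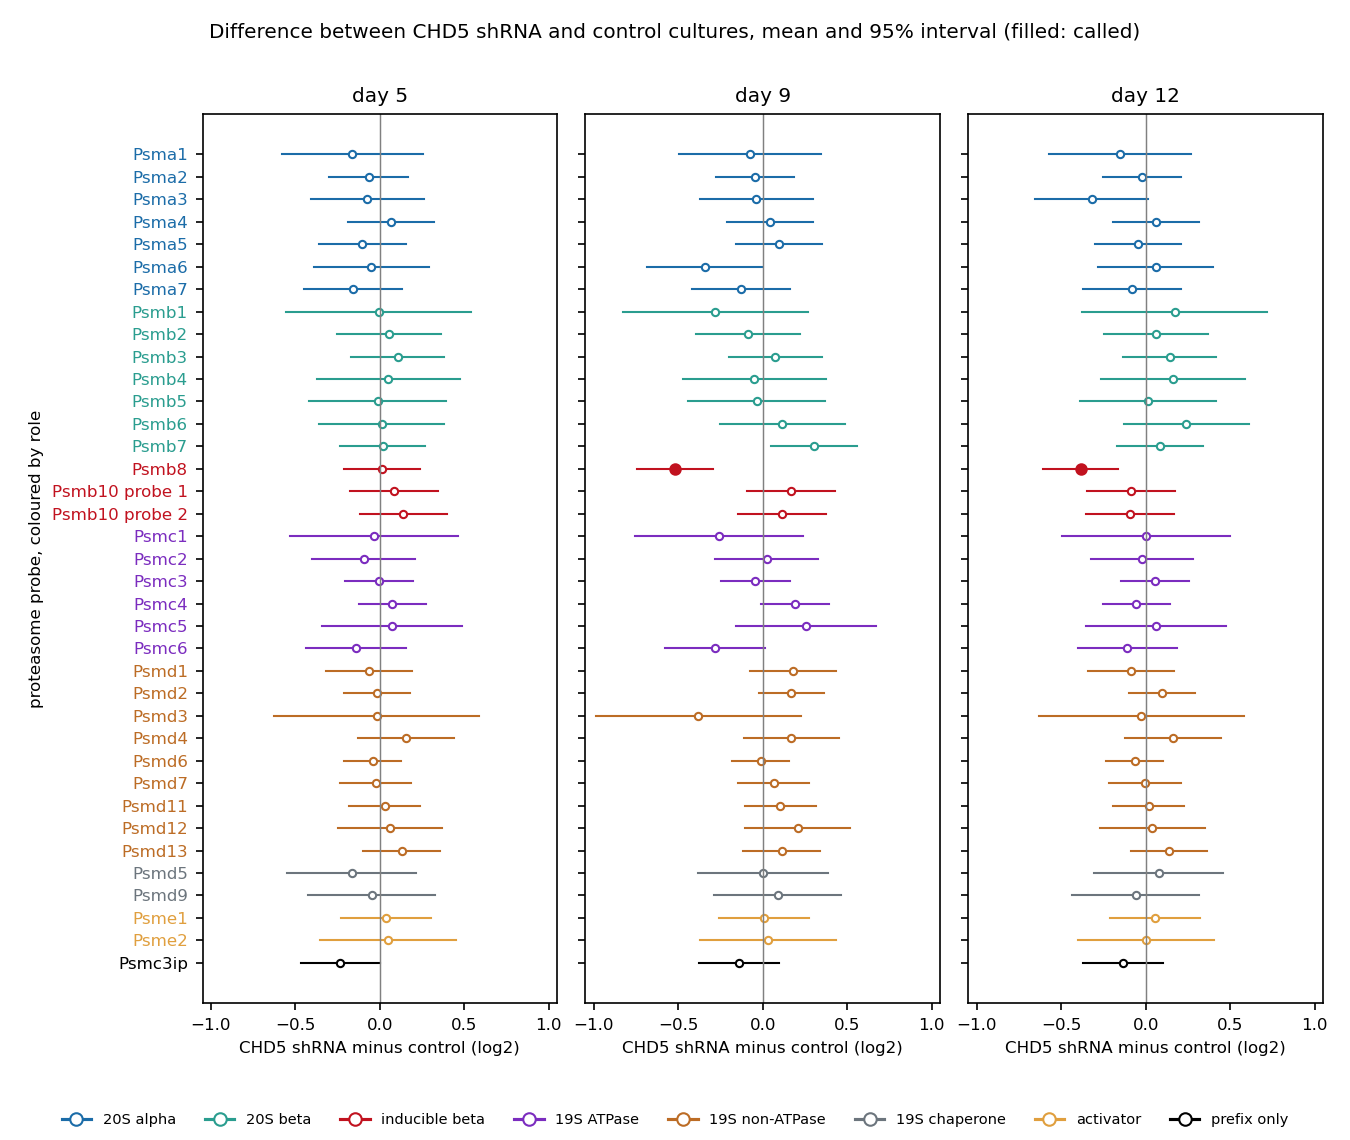
Difference between CHD5 shRNA and control cultures (x axis, log2) for each of the 37 tested proteasome probes (y axis, coloured by role) at days 5, 9 and 12; points are means of 3 arrays against 3, bars are 95% intervals from limma, and filled points were called. Only Psmb8 at day 9 (-0.52) and day 12 (-0.39) is filled, and the other members scatter around 0.

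In no structural class other than the inducible beta subunits was a member called. Of the 7 alpha subunits 0 were called at days 9 and 12, with medians of -0.04 and -0.05. Of the 7 constitutive beta subunits 0 were called, with medians of -0.04 and 0.14. At day 12 the differences of these 7 all lay above 0, between 0.01 (Psmb5) and 0.24 (Psmb6), but the smallest adjusted p among them was 0.609. Of the 6 ATPases 0 were called (medians -0.01 on both days), and of the 9 non-ATPase subunits 0 were called (0.11 and 0.02). The assembly chaperones Psmd5 and Psmd9 ranged from 0.00 to 0.09 at day 9 and from -0.06 to 0.08 at day 12.

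Some alternative fits called more members at day 12, and why they did was not tested. With only the 6 day 12 arrays in the fit, 3 members were called, Psmb8, Psma3 (-0.32, adjusted p = 0.0093, limma) and Psmb6 (0.24, adjusted p = 0.0232, limma), where 23.6% of all probes were called, and a fit with a weight for each array called the same 3, where 32.3% of all probes were. Leaving out control replicate b of day 9 called Psmb8 and Psma3 at day 12, and in that fit 13.3% of all tested probes were called. Psma3 was detected on 3 of 3 control and 2 of 3 CHD5 shRNA arrays of day 12. Groups did not overlap for 9 of 37 members at day 12, where this held for 38.2% of all probes, and for 4 at day 9, where it held for 20.6%.

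Psmb8, on chromosome 20 in the array annotation, encodes the inducible chymotrypsin-like subunit that takes the place of Psmb5. In the control cultures its normalised level was 6.14, 6.48 and 6.23 at day 5 (replicates a, b and c), 6.84, 7.05 and 7.01 at day 9 and 6.85, 6.90 and 6.68 at day 12. In the CHD5 shRNA cultures it was 6.38, 6.19 and 6.32 at day 5, then 6.33, 6.56 and 6.45 at day 9, and finally 6.41, 6.48 and 6.37 at day 12. At day 5 the groups overlapped, and at days 9 and 12 every control array lay above every CHD5 shRNA array. The difference was 0.01 ± 0.11 (SE) at day 5, -0.52 ± 0.11 at day 9 (adjusted p = 0.00886, limma) and -0.39 ± 0.11 at day 12 (adjusted p = 0.0403, limma). As Psmb8 entered the test only through control arrays, the fit was also made on all probes without a detection filter, which gave -0.43 at day 9 (adjusted p = 0.0254, limma) and -0.37 at day 12 (adjusted p = 0.0549, limma), so the day 12 call was lost.

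These levels were near the background. Psmb8 was detected on 2 of 3 control arrays at day 9 (a and c) and on 2 of 3 at day 12 (a and b), and on 0 of 9 CHD5 shRNA arrays and 0 of 3 control arrays at day 5. A group without detection has only an upper bound, taken per array as the higher of the probe's own level and the lowest level of any detected probe. With the mean of all 3 control arrays against that bound, Psmb8 was at least 1.12-fold higher in control than in CHD5 shRNA cultures at day 9 and at least 1.03-fold higher at day 12. Each of these control means holds 1 array without detection, and with the 2 detected arrays alone, a choice made after the values were seen, the bounds were 1.09-fold and 1.07-fold.

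The deposited signals behind these levels differ in 1 respect from the normalised ones. On the day 9 control arrays they were 120, 70.9 and 114, and on the day 9 CHD5 shRNA arrays 77.3, 83.9 and 80.1. The lowest of these 6 belongs to control replicate b, on which Psmb8 was not detected (detection p 0.17) although its normalised level was the highest of all. Without that array the difference was -0.48 at day 9 (adjusted p = 0.00813, limma) and -0.40 at day 12 (adjusted p = 0.0107, limma). On the day 12 control arrays the deposited signals were 121, 120 and 113, and on the day 12 CHD5 shRNA arrays 91.5, 90.6 and 82.5.

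**Figure D2:**
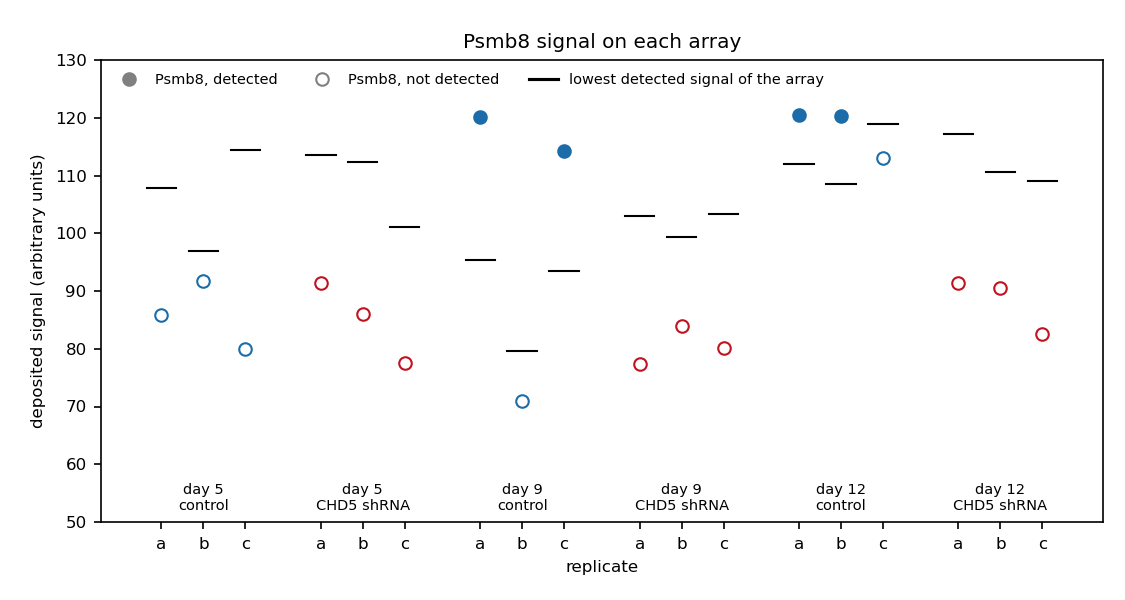
Deposited Psmb8 signal (y axis, arbitrary units, not normalised; the axis does not start at 0) on each of the 18 arrays (x axis, replicates a, b and c of each group); blue points are control and red points CHD5 shRNA, filled where Psmb8 was detected, and black bars mark the lowest signal of a detected probe on that array. The 4 filled points are control arrays of days 9 and 12, at 114 to 121, and every CHD5 shRNA array lies below its bar.

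The replicate a arrays were measured a second time. Psmb8 then gave signals of 123 in control and 81.3 in CHD5 shRNA at day 9, and of 93.8 and 80.7 at day 12. With these in place of the first measurements the difference was -0.48 at day 9 (adjusted p = 0.0102, limma) and -0.35 at day 12 (adjusted p = 0.0548, limma), so the day 12 call was lost. Leaving out any 1 of the 6 day 12 arrays also ended the day 12 call (adjusted p 0.0508 to 0.165, limma), as did leaving out CHD5 shRNA replicate c of day 5 (0.0567), control replicate c of day 9 (0.0508) or CHD5 shRNA replicate c of day 9 (0.056). The day 9 call ended without CHD5 shRNA replicate a (0.0585) or c (0.0571) of that day. Median centring without scaling of the spread gave -0.56 and -0.38, with adjusted p of 0.193 and 0.553 (limma), and the fit of the 6 day 9 arrays alone gave an adjusted p of 0.3 at day 9.

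Some other transcripts also differed between the cultures at days 9 and 12. Of 12 interferon response genes 7 were not detected on any array, and of the 5 detected only B2m, the light chain of class I molecules, was called, lower by CHD5 shRNA at day 9 (-1.07, adjusted p = 0.000985, limma) and day 12 (-0.87, adjusted p = 0.00309, limma). The median difference of the 5 was smaller, at -0.16 at day 9 and -0.20 at day 12. Summed over these 5 genes the normalised level, on a linear scale, was 5984 to 7946 in control and 3064 to 4121 in CHD5 shRNA cultures at day 9. At day 12 the sums were 7801 to 9209 and 4807 to 5283. Such a sum gives most weight to the brightest genes and does not show a fall of all 5. Of 8 detected astrocyte markers 6 were called lower in CHD5 shRNA at day 9 and 5 at day 12, where 2.25% and 3.24% of all probes were called lower. Their summed level was 27903 to 124570 in control against 16480 to 21679 in CHD5 shRNA at day 9, and 47904 to 52106 against 26464 to 28076 at day 12. The upper end in the day 9 control group is the stretched array of replicate b, and on replicates a and c the astrocyte sum was 27903 to 35049 and the interferon sum 5984 to 6469. The sum of the 10 neuronal markers was also highest on that array, at 232040 against 40780 to 49227 on replicates a and c, with 54283 to 61805 in CHD5 shRNA at day 9. Of 4 detected fibroblast markers 2 were called lower in CHD5 shRNA at day 9 and 2 at day 12. Of 8 detected oligodendrocyte lineage markers 1 was called lower on each of these days. Of the microglial markers Aif1 and Cd68 were the 2 detected, with 0 called, and Itgam, C1qa, C1qb, Cx3cr1, Ptprc and Tyrobp were not detected. The part of these cells and genes in the Psmb8 result was not tested.

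Psmb10, on chromosome 19, encodes the inducible trypsin-like subunit and did not pass the test between the cultures on any day. Its probe with the higher mean signal differed by 0.08 ± 0.12 (SE) at day 5, 0.17 ± 0.12 at day 9 and -0.09 ± 0.12 at day 12, and the second probe by 0.14, 0.11 and -0.09. The 95% interval of the first probe at day 12 ran from -0.35 to 0.17. In each of these comparisons the control and CHD5 shRNA arrays overlapped for both probes.

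The activator subunits did not pass the test between the cultures on any day. Psme1 was 10.92, 10.66 and 10.73 in control and 10.80, 10.82 and 10.81 in CHD5 shRNA at day 5, 10.99, 10.69 and 11.24 against 11.00, 11.04 and 10.90 at day 9, and 10.49, 10.84 and 10.85 against 10.78, 10.73 and 10.84 at day 12. Psme2 was 9.11, 8.86 and 8.82 against 9.27, 8.87 and 8.79 at day 5, 8.88, 7.88 and 8.74 against 8.51, 8.51 and 8.56 at day 9, and 8.77, 8.38 and 8.58 against 8.56, 8.57 and 8.61 at day 12. The groups overlapped at each day for both genes, and the largest of their 6 differences was 0.05. The 95% intervals at day 12 ran from -0.21 to 0.32 for Psme1 and from -0.40 to 0.41 for Psme2.

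The constitutive catalytic subunits showed no called difference either. Psmb5 was 12.10, 12.58 and 12.60 in control and 12.48, 12.16 and 12.60 in CHD5 shRNA at day 5, 12.20, 13.20 and 12.51 against 12.53, 12.56 and 12.72 at day 9, and 12.13, 12.36 and 12.18 against 12.29, 12.23 and 12.19 at day 12. Psmb6 was 11.20, 11.44 and 11.47 against 11.34, 11.30 and 11.51 at day 5, 10.94, 12.01 and 11.50 against 11.49, 11.58 and 11.73 at day 9, and 10.95, 11.12 and 11.09 against 11.22, 11.32 and 11.34 at day 12. Psmb7 was 11.70, 11.60 and 11.73 against 11.91, 11.48 and 11.68 at day 5, 11.48, 11.08 and 11.38 against 11.56, 11.60 and 11.70 at day 9, and 11.56, 11.41 and 11.64 against 11.68, 11.47 and 11.70 at day 12. Groups did not overlap for Psmb7 at day 9 (0.30 ± 0.12 SE, adjusted p = 0.156, limma) and for Psmb6 at day 12 (0.24 ± 0.18, adjusted p = 0.609, limma). For Psmb5 they overlapped at each day, and its difference at day 12 was 0.01, with a 95% interval from -0.39 to 0.42.

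**Figure D3:**
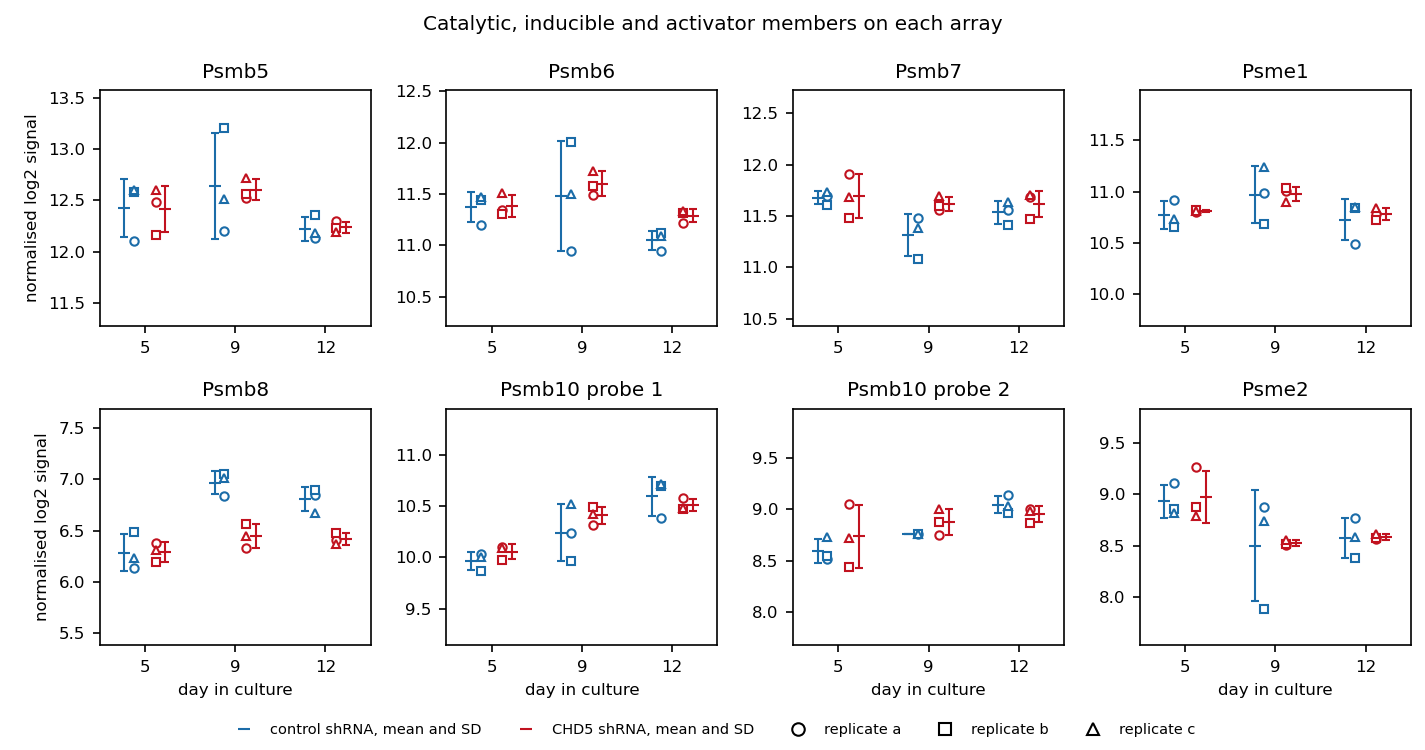
Normalised log2 signal (y axis; every panel spans a range of the same width) of the catalytic, inducible and activator members by day in culture (x axis), with control in blue and CHD5 shRNA in red; open symbols are single arrays (circle a, square b, triangle c), and bars are the mean and SD of 3. Control and CHD5 shRNA separate for Psmb8 at days 9 and 12, both probes of Psmb10 climb in the control cultures, and the square at day 9 control is the array with the compressed signal range.

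Over time in the control cultures Psmb10 and Psmb8 were called higher and no other member passed the test from day 5 to day 12. From day 5 to day 12, 3 of 37 members were called higher and 0 lower (8.11%), where 23.6% of all tested probes were called, 11.1% higher and 12.5% lower. The 3 were both probes of Psmb10 and Psmb8, which are all 3 of the tested probes for inducible beta subunits. Of these Psmb8 passed the detection filter only through the later control arrays, and Psmb9 did not pass it. The member median was -0.01 beside -0.02 for all probes, and the median size of a change was 0.0994 for members beside 0.191 for all probes. It was 0.242 for the probes at or above the median mean level. Over the same days 8 of 8 detected astrocyte markers and the interferon response genes Irf1, Mx2 and B2m rose. So did 7 of 8 detected oligodendrocyte lineage markers. Of the 12 interferon response genes 7 were not detected on any array, and 4 of the 5 detected were called higher. Of 4 detected fibroblast markers 2 were called higher and 2 lower, and of 10 neuronal markers 1 higher and 1 lower. The part of these genes and cells in the rise of the inducible subunits was not tested.

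The Psmb10 probe with the higher mean signal rose in the control cultures from 10.04, 9.87 and 9.999 at day 5 through 10.24, 9.96 and 10.52 at day 9 to 10.38, 10.69 and 10.72 at day 12. The change from day 5 to day 12 was 0.63 ± 0.12 (SE; adjusted p = 0.00102, limma), and the groups did not overlap. The second probe went from 8.52, 8.55 and 8.73 through 8.76, 8.76 and 8.76 to 9.14, 8.97 and 9.04, a change of 0.45 ± 0.12 (adjusted p = 0.0121, limma), also without overlap. For Psmb8 the difference was 0.52 ± 0.11 over the same days (adjusted p = 0.00141, limma) and 0.51 without a detection filter (adjusted p = 0.00106, limma). As 0 day 5 arrays detected it, the measured bound was at least 1.17-fold, or 1.22-fold with the 2 detected day 12 arrays alone. Median centring ended the calls of both Psmb10 probes (adjusted p = 0.128 and 0.0626, limma), and that of the second also ended without control replicate a of day 12 (0.0577).

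Psmb8 was also called higher at day 9 than at day 5 in the control cultures. From day 5 to day 9, 1 member was called higher (Psmb8, 0.68 ± 0.11 SE, adjusted p = 0.000228, limma) and 1 lower (Psmb7, -0.36 ± 0.12, adjusted p = 0.0405, limma), which is 5.41% of members where 22.0% of all tested probes were called, 9.18% higher and 12.8% lower. Without a detection filter the Psmb8 difference was 0.53 (adjusted p = 0.00137, limma), and the bound was at least 1.31-fold over all 3 day 9 control arrays and 1.27-fold over the 2 that detected it. The Psmb7 call was lost in 10 of the 18 fits that left out 1 array (control replicates a, b and c of day 5, b of day 9 and a of day 12, and CHD5 shRNA replicates c of day 5, a and b of day 9 and a and c of day 12). Without control replicate b of day 9 the Psmb7 change was -0.25 (adjusted p = 0.131, limma). With only the 6 arrays compared in the fit, Psmb8 was not called either (adjusted p = 0.0682, limma). From day 9 to day 12, 0 of 37 members were called in the control cultures, where 4.16% of all probes were called, and 7 had an unadjusted p under 0.05, where 20.1% of all probes did. Groups did not overlap for 4 members from day 5 to day 9 (25.7% of all probes), 2 from day 9 to day 12 (18.4%) and 10 from day 5 to day 12 (44.3%).

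The array of control replicate b also set the largest changes of some uncalled members, which are named here after their values were seen. The core subunit Psmb1 stood at 14.43 on it and at 12.79 and 13.12 on the other day 9 control arrays, the ATPase Psmc1 at 14.54 against 13.06 and 13.37, and the scaffold subunit Psmd3 at 14.34 against 12.58 and 12.83. Their changes from day 5 to day 9 were 0.60, 0.58 and 0.69 with the array and 0.11, 0.14 and 0.14 without it, and none was called in either fit. With control replicate a of day 9 left out instead, which leaves replicates b and c in that group, 15 of 37 members were called from day 5 to day 9 (10 higher and 5 lower), where 46.1% of all probes were called, and 7 from day 9 to day 12, where 20.3% were. Without replicate b, from day 5 to day 12 in the control cultures 9 of 37 members were called (5 higher and 4 lower), where 39.0% of all probes were. The further calls were higher Psma3 (0.38) and Psmd11 (0.25) and lower Psmb6 (-0.33), Psme2 (-0.36), Psmd9 (-0.26) and Psmc3ip (-0.26).

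In the CHD5 shRNA cultures the rise of Psmb10 was present and that of Psmb8 was not called. From day 5 to day 12, 1 of 37 members was called higher and 0 lower (2.70%), where 17.0% of all tested probes were called, 8.46% higher. Groups did not overlap for 7 of 37 members, where this held for 47.6% of all probes. The Psmb10 probe with the higher mean signal went from 10.10, 9.97 and 10.09 at day 5 through 10.32, 10.49 and 10.42 at day 9 to 10.58, 10.47 and 10.48 at day 12, without overlap between days 5 and 12. Its change was 0.46 ± 0.12 (SE; adjusted p = 0.0156, limma). The second probe, at 9.05, 8.44 and 8.72, then 8.75, 8.88 and 9.01 and then 9.01, 8.87 and 8.99, changed by 0.22 ± 0.12 and overlapped (adjusted p = 0.266, limma), so the probes disagreed on the call. Psmb8 changed by 0.12 ± 0.11 (adjusted p = 0.498, limma), with a 95% interval from -0.10 to 0.35, and was not detected on any of these arrays. The 8 astrocyte markers and Irf1, Mx2 and B2m rose in these cultures too, as did 6 of 8 oligodendrocyte lineage markers. Of the 5 detected interferon response genes 4 were called higher here. The call of the first Psmb10 probe ended without CHD5 shRNA replicate b of day 5 (adjusted p = 0.0684, limma) or replicate a of day 12 (0.0637).

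Between days 5 and 9 in the CHD5 shRNA cultures 0 of 37 members were called, where 9.33% of all tested probes were, and 6 had an unadjusted p under 0.05 (24.1% of all probes). Between days 9 and 12, 0 members were called, where 1.37% of all probes were, and 0 had an unadjusted p under 0.05 (9.82% of all probes). Groups did not overlap for 15 and 16 of the 37 members, where this held for 43.8% and 33.0% of all probes. Without control replicate b of day 9, 7 members were called from day 5 to day 9, higher Psma3, Psmb1, Psmb10, Psmc1 and Psmd11 and lower Psma4 and Psme2 (25.8% of all probes), and 5 from day 5 to day 12, higher Psmb10, Psmd2 and Psmd11 and lower Psmd9 and Psme2 (32.2%). In these cultures Psma3 was detected on 1 of 3 arrays at day 5 and 3 of 3 at day 9.

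**Figure D4:**
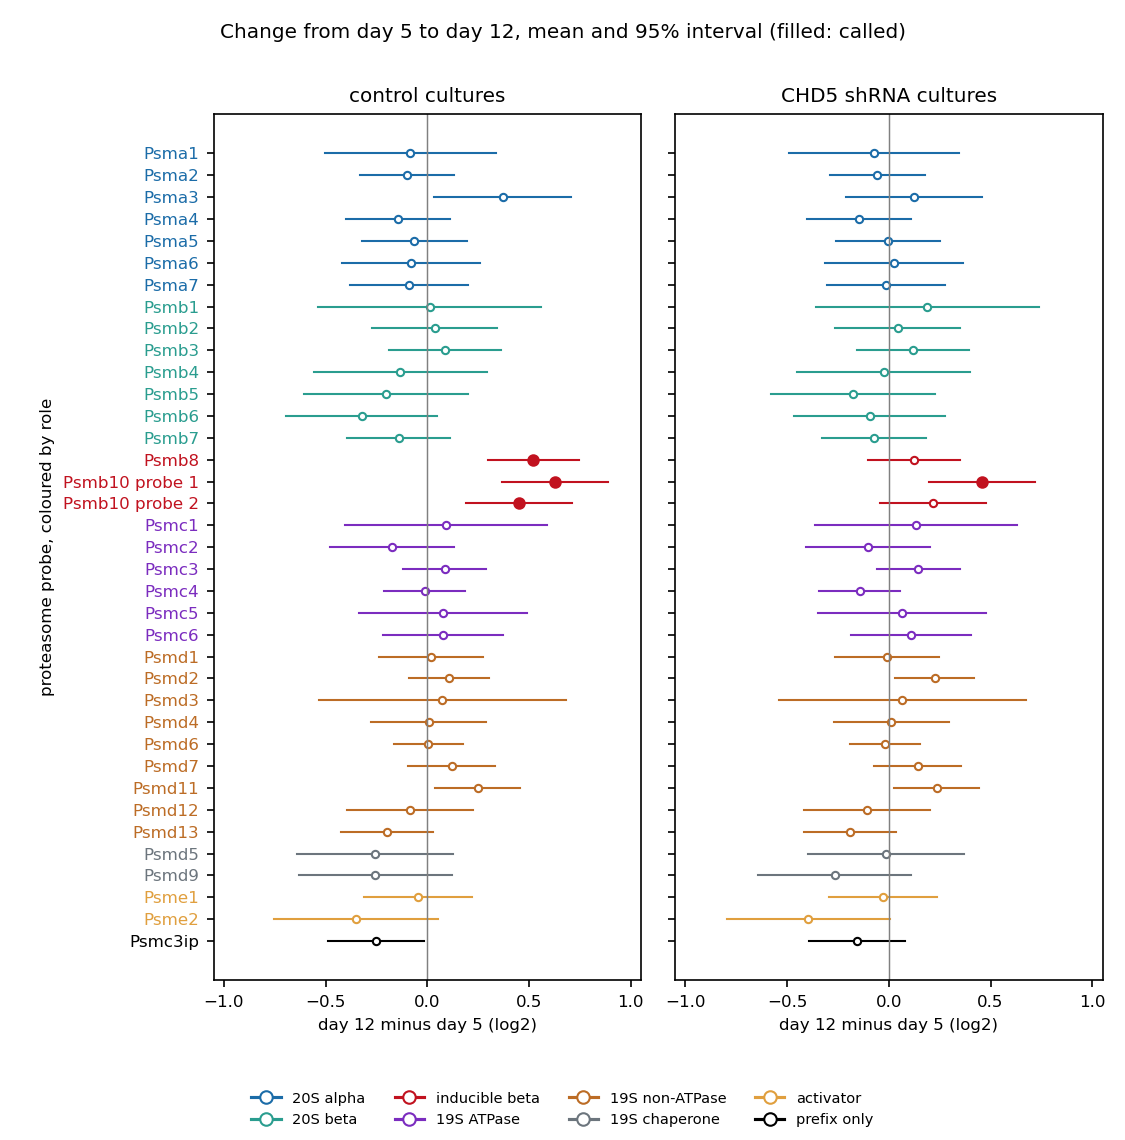
Change from day 5 to day 12 (x axis, log2) of each of the 37 tested proteasome probes (y axis, coloured by role) in control and in CHD5 shRNA cultures; points are differences of means of 3 arrays, bars are 95% intervals from limma, and filled points were called. Psmb8 and both probes of Psmb10 are filled in the control cultures and the first probe of Psmb10 in the CHD5 shRNA cultures.

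Whether the effect of CHD5 shRNA changed between days was tested by the difference of differences. Of the 37 members 0 were called from day 5 to 9, from day 9 to 12 and from day 5 to 12, where 0, 0 and 0.153% of all tested probes were called. With an unadjusted p under 0.05 there were 1, 0 and 1 members, where 7.30%, 2.36% and 6.75% of all probes passed. For Psmb8 the effect changed by -0.53 ± 0.15 (SE) from day 5 to day 9 (95% interval -0.85 to -0.21, adjusted p = 0.345, limma) and by -0.40 ± 0.15 from day 5 to day 12 (adjusted p = 0.501, limma). The call of Psmb8 at days 9 and 12 and its absence at day 5 were therefore not shown to differ after adjustment over all probes. The comparisons over time share their groups with those between cultures, so their values are not independent of each other.

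Beyond the genes with these prefixes, 33 other genes of ubiquitin tagging, delivery to the proteasome and proteasome control were counted, among them 2 subunits of the regulatory particle under other names (1 detected) and 1 assembly factor, and 28 were detected. At day 5, 0 of the 28 were called by limma, where 0.171% of all probes were, and 1 had an unadjusted p under 0.05, where 5.66% of all probes did. At day 9, 2 were higher and 1 lower in CHD5 shRNA, where 5.89% of all probes were called, and at day 12, 1 was higher and 1 lower, where 5.47% were. Uchl1, an abundant ubiquitin hydrolase of neurons, was higher by 0.94 ± 0.14 (SE) at day 9 and 0.79 ± 0.14 at day 12 (adjusted p = 0.000887 and 0.00207, limma). Nfe2l1, whose protein NRF1 switches on subunit genes when the proteasome is overloaded, was higher by 0.38 ± 0.10 at day 9 (adjusted p = 0.04, limma) and differed by 0.19 at day 12 (adjusted p = 0.409, limma). Ubqln2, a shuttle that brings tagged proteins to the proteasome, was lower by CHD5 shRNA at day 9 (-0.44 ± 0.11, adjusted p = 0.0283, limma). Calls of genes outside the members, here, below and for the markers, come from the main fit alone. Its day 9 control group holds the stretched array of replicate b, and these calls were not followed under the alternatives.

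Nfe2l2, which encodes NRF2, the factor of the antioxidant response, was lower in CHD5 shRNA at day 12 (-0.90 ± 0.18 SE, adjusted p = 0.00641, limma) and differed by -0.62 at day 9 (adjusted p = 0.0554, limma). In the control cultures it rose by 1.16 from day 5 to day 12. Beside these genes, 1 of 10 neuronal markers was called higher at day 9 and 1 at day 12, where 5.89% and 5.47% of all probes were called. The astrocyte markers were lower as given above, and the part of the cell types in these differences was not tested. Over time in the control cultures from day 5 to day 12, 2 of the 28 rose and 4 fell, where 23.6% of all probes were called, and in the CHD5 shRNA cultures 1 rose and 1 fell, where 17.0% were.

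The members were also described by promoter motif. For the 7 tested probes of members whose window holds TGACNNNGC the median difference between CHD5 shRNA and control was -0.04 at day 9 (range -0.38 to 0.18) and -0.03 at day 12 (range -0.32 to 0.24), and 0 were called. For the 27 tested probes of members with a window that lacks it the medians were 0.03 and 0.02, and 1 was called on each day, Psmb8. The occurrence of the letters in a window is a description and not evidence of binding.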

How the data were processed

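Total RNA of 18 samples was measured on Illumina RatRef-12 arrays. The deposited signal intensities are bead means that the authors extracted with GenomeStudio 1.1.1 (version from the submitters' processing notes) with neither normalisation nor subtraction of background. The accompanying detection p-values, made by the authors with the same program, compare each bead mean with the negative control beads. Arrays were grouped by their labels, and the lowest of all signals was 42.8, so logarithms could be taken throughout.

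Probes with a detection p of at most 0.02 on at least 1 array were kept, and their log2 signals were Z-transformed per array and multiplied by the mean SD, after the study's Z-score normalisation. limma 3.58.1 in R 4.3.3 (lmFit, eBayes) was fitted to the 6 groups together. Intervals are 95% and come from this fit. The number of arrays limits the precision. Same-letter arrays deviated together at day 5 (correlations 0.27, 0.17 and 0.38) and between days 9 and 12 in control (0.14, 0.26 and 0.17), and were taken to pair there only. A block by letter changed neither of these counts, which stayed at 0. The correlations were also above 0 between cultures at day 12 (0.05, 0.15 and 0.01) and in CHD5 shRNA from day 5 to 12 (0.17, 0.16 and 0.01). There the block left the counts at 1. The slide of each array is not given in the sources used here. Members named on every array were those called between cultures (up to 8), the 3 called with the largest rise and fall from day 5 to 12 in each culture, the catalytic, inducible and activator members, and those with a changed effect, with the brighter probe of a gene first. The procedure was run on simulated arrays with set changes, each rescaled to the mean and SD of a real array. The Z-score removes such a rescaling exactly, so the simulation does not speak to the stretched control replicate b of day 9. The members, the lists of other genes and the alternatives were chosen with earlier results of these data known. One gene of the interferon response list is not reported here by itself.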

Additional observations from a re-analysis of the deposited data

How the results depend on the processing

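No reported call of a member changed direction under any alternative run. However, Psmb4 in control from day 5 to 9, not called at 0.18, was called lower with quantile normalisation (-0.31, adjusted p = 0.00486, limma) and neqc (-0.31, 0.0162). The counts of members called between cultures at day 5 and for a change of the effect were 0 under every alternative. At day 9 the count fell from 1 to 0 with median centring, with detection required on all 3 arrays of a group (35 members tested, without Psmb8) and with only the groups compared. At day 12 it was 0 with median centring, no detection filter, the stricter filter and the second measurement of replicate a, and 3 with only the groups compared and with array weights.

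In the control cultures the 2 calls from day 5 to 9 became 8 with quantile normalisation (24.6% of all probes), 6 with neqc (23.6%), 1 with median centring, the stricter filter or array weights, and 0 with only the groups compared. From day 9 to 12 the 0 became 4 with the size rule (Z-ratio beyond 1.5, adjusted p under 0.3). The share of all probes that pass this rule was not counted, so nothing about the members is read from its counts here or below. From day 5 to 12 the 3 became 6 with quantile normalisation (30.7%), neqc (29.0%) or only the groups compared (29.2%), 1 with median centring and 0 with the size rule. In the CHD5 shRNA cultures the 0 from day 5 to 9 became 1 with quantile normalisation, neqc, the second measurement or the size rule, 9 with only the groups compared (26.0%) and 11 with array weights (36.4%). From day 9 to 12 the last 2 gave 7 (15.1%) and 9 (23.7%) in place of 0. From day 5 to 12 they gave 5 (33.8%) and 10 (45.1%) in place of 1, quantile normalisation gave 3, and median centring and the size rule gave 0. The array weights stopped short of their convergence tolerance. The cause was not tested.

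Median centring keeps the spread of each array, which was narrow on control replicate b of day 9 and differed among the others (SD 1.72 to 2.02). It moved the member median to 0.30 at day 9, -0.42, 0.33 and -0.14 in control (days 5 to 9, 9 to 12, 5 to 12), -0.14 and -0.18 in CHD5 shRNA (days 5 to 9, 5 to 12), and 0.29 and -0.30 for the change of the effect (days 5 to 9, 9 to 12). Of the 37 members 32 lie at or above the median mean level of all tested probes. The shift of other bright probes in that fit is not given here, so nothing particular to the members is read from these medians. The control change from day 5 to 12 and the CHD5 shRNA changes compare groups without replicate b of day 9 control. Leaving out 1 array at a time gave 0 to 1 calls at day 9, 0 to 2 at day 12, 1 to 15, 0 to 7 and 2 to 9 in control (days 5 to 9, 9 to 12, 5 to 12) and 0 to 7, 0 to 0 and 0 to 5 in CHD5 shRNA. The 15 and the 7 in control came without replicate a of day 9, and the 2 at day 12, the 9 in control and the 7 and 5 in CHD5 shRNA without replicate b of day 9 control.

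With the replicate letter as a block over all days Psmb8 kept its calls at day 9 (-0.52, adjusted p = 0.00754, limma) and day 12 (-0.39, 0.033), and likewise with the block within a day (0.00442 and 0.0238). These fits keep the detection filter, which Psmb8 passed only through control arrays, so they are descriptions and lend its call no support. Same-letter arrays were also not taken to pair between the cultures on these days. Across alternatives its adjusted p ran from 0.00442 to 0.3 at day 9 and from 0.00015 to 0.553 at day 12. Psmb8 lies near the background, so its fold change is bounded and not measured.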
